A study of Mus musculus with 36 samples.

Results

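Embryoid bodies (EB) lacking Whsc1 were compared with wild-type EB at day 6 by UMI-4C, a method that ligates DNA ends lying close together in the nucleus and reads out what is joined to 1 chosen fragment, the viewpoint. The viewpoints lay at Foxa2, Gata4, Gata6 and T, and the members of the comparison were the positions with a finite contact score in both genotypes. There were 4130 such positions of 4314 in the series: 1033 at T, 1041 at Gata6, 983 at Foxa2 and 1073 at Gata4. The EB KO group was labelled Whsc1-/- and the EB WT group wild type, called Whsc1+/+ in the series text. Both were grown from mouse embryonic stem cells (ES) as hanging drops in serum medium without LIF and then in suspension. The labels name no strain, clone or cell make-up of the EB, and contact scores hold no expression with which to check the genotype or the cell types. Each of the 8 EB columns pools 2 libraries, so 16 of the 32 contact libraries of the series enter here, and ES of both genotypes at day 0 were used beside them.

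Whsc1, also known as Nsd2, encodes an enzyme that places methyl groups on lysine 36 of histone H3, a mark of active and intergenic chromatin. The 4 viewpoint genes encode transcription factors that act when pluripotent cells form mesoderm and endoderm: T (Brachyury) is the T-box factor of early mesoderm, Foxa2 a forkhead factor needed for node and endoderm, and Gata6 and Gata4 bind GATA motifs through zinc fingers in endoderm and the developing heart. Embryoid bodies form such lineages in a mixed aggregate. Promoters of such genes can contact enhancers far along the chromosome, and a contact profile shows a steep decay with distance on which local humps mark stretches met more often than their neighbours.

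Scored positions were set beside promoter sequences to see which fragments they stand for. In the RefSeq promoter table of GRCm38.p6, 20 of the 51 genes annotated in the 4 regions had a promoter sequence. Wherever 2 neighbouring GATC sites fell inside 1 of these sequences, the point midway between them was a scored position within 1 base, in 7 of 7 cases. Of these, 6 lie in promoters of 1 gene, 9030622O22Rik, and 1 in that of Gm35908. GATC reads the same on both strands and occurs in 48.0% of all 300-base promoters of the table. In the lines below GATC is in capitals. The promoters of Foxa2 (chr2:148046920-148047219, minus strand), its neighbour 9030622O22Rik (chr2:148040437-148040736, minus strand) and T (chr17:8434173-8434472, plus strand) are shown first. They were chosen because the Foxa2 and T viewpoints lie near the starts of their genes and 2 scored fragments lie between the 3 sites of 9030622O22Rik. Gm46592 (chr17:8347859-8348158, minus strand) and Gm33799 (chr17:8272468-8272767, minus strand) are shown as well. They were picked because, among the 17 gene starts with a value, theirs had the 2 greatest genotype differences in EB.
Foxa2: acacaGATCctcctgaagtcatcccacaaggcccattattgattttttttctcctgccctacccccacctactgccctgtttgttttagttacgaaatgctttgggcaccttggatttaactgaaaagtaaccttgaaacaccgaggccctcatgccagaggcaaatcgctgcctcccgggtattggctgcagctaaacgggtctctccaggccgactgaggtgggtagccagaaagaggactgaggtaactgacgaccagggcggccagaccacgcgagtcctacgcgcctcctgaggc
9030622O22Rik: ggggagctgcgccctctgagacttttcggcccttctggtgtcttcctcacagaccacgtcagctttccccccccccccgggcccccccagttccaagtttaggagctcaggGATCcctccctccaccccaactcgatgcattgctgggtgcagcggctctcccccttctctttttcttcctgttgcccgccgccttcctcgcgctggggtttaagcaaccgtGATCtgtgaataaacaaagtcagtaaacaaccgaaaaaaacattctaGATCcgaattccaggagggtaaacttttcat
T: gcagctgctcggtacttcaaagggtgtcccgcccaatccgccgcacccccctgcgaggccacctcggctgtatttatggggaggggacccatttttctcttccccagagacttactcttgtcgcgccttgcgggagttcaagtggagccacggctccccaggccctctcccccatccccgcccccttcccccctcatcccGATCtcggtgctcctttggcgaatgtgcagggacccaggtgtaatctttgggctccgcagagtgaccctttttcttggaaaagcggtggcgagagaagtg
Gm46592: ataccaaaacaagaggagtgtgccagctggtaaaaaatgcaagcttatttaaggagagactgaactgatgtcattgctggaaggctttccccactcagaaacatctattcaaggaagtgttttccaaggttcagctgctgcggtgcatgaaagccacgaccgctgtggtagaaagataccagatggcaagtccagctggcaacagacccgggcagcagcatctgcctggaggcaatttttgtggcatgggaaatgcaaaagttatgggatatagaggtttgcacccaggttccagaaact
Gm33799: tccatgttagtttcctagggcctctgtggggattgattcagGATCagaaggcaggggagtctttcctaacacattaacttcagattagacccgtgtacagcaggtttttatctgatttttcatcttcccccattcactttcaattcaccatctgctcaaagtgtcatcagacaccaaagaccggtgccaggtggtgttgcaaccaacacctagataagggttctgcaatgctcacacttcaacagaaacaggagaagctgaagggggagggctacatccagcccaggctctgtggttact

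The Foxa2 viewpoint, at position 148046914 of chromosome 2, lies 0.055 kb inside the gene from its start. The T viewpoint, at 8433756 of chromosome 17, lies 0.667 kb before the start of T. Both positions lie outside the promoter sequences shown. The T viewpoint also lies within the span of LOC115486424, another annotated protein-coding gene. The Gata4 viewpoint lies at 63245606 of chromosome 14 within the span of Gata4, and that of Gata6 at 11053621 of chromosome 18 within Gata6. At 9030622O22Rik, a long non-coding RNA gene, the fragment between its sites at 148040464 and 148040511 scored 2.43 in WT and 2.22 in KO, and the next fragment, up to 148040622, scored 2.51 and 2.15.

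Scores are the authors' values for 1 pooled column per genotype, so no replicate value, error or test between genotypes can be given. Their unit is not stated. They take both signs and change smoothly along the chromosome, so neighbouring positions are not independent. The median of KO minus WT over positions was -0.30 at T, 0.12 at Gata6, 0.19 at Foxa2 and 0.32 at Gata4. In ES these medians were -0.28, 0.023, 0.17 and 0.30. WT and KO columns look scaled separately, so this median was removed at each viewpoint, and the rest is called the centred difference. It describes the shape of a profile and cannot show an overall gain or loss of contact. Of the 4 columns at each viewpoint, EB WT stood furthest from the other 3 in shape at 4 of 4 viewpoints. Its difference from the others had a mean standard deviation (SD) across windows of 0.55 at T and 0.44 at Gata6. At Foxa2 this mean was 0.34 and at Gata4 0.16. In the same order EB KO had 0.36, 0.31, 0.22 and 0.12. ES WT had 0.32, 0.37, 0.18 and 0.13, and ES KO 0.33, 0.30, 0.20 and 0.11. Every difference between genotypes in EB rests on this EB WT column, and none can be given without it.

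Wild-type and knockout EB had different contact profiles at T, Foxa2 and Gata6, and nearly the same shape at Gata4. Scores were averaged over windows of 10 kb on each side, beginning 10 kb from the viewpoint, and a window was counted where its centred difference reached 0.5 score units, a size chosen with earlier results known. Of 161 windows, 26 reached it (16.1%), 15 higher in KO (9.32%) and 11 lower (6.83%). T held 15 of its 42 windows (35.7%), with 11 higher (26.2%) and 4 lower (9.52%). Foxa2 held 7 of 38 (18.4%), 4 higher (10.5%) and 3 lower (7.89%), and Gata6 4 of 40 (10%), all 4 lower. At Gata4 none of 41 windows reached the size. All 15 windows higher in KO lay on the lower side of their viewpoint, the side of smaller coordinates, 11 at T and 4 at Foxa2. That side held 22 of the 42 windows at T and 23 of the 38 at Foxa2. Over all viewpoints it also held 7 of the 11 windows lower in KO. Without centring, higher-side windows at Foxa2 (10 to 20 kb, 0.53) and Gata4 (20 to 30 kb, 0.54) were also higher in KO by at least 0.5. Of the 26 windows past 0.5, 25 lay 50 kb or more away, where 129 of all 161 windows lie. Without T, 11 of 119 windows were past the size (9.24%), 4 higher and 7 lower. The counts per viewpoint depend on the centring. Without it T had 8 higher and 13 lower windows, Foxa2 6 and 2, Gata6 1 and 3, and Gata4 4 and 0. With the median of both sides removed in each 10 kb band, which makes the sides mirror each other, T had 9 and 9 of 40 windows, Foxa2 1 and 1 of 30, Gata6 1 and 1 of 38, and Gata4 none of 40.

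**Figure D1:**
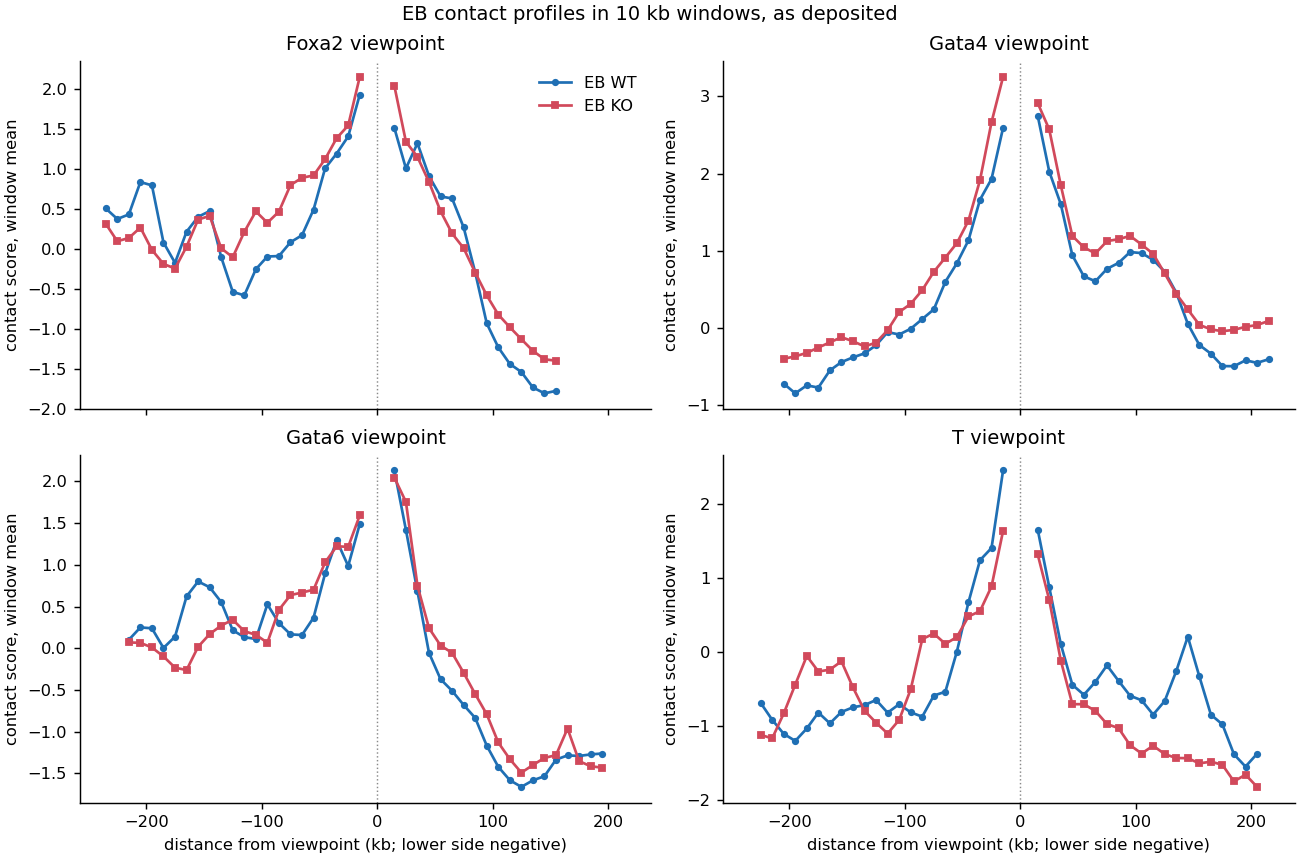
Mean contact score in EB WT (circles) and EB KO (squares) in 10 kb windows against distance from the viewpoint in kb, with the lower side negative, 1 panel per viewpoint and 1 pooled column per line. At T the EB WT line has a hump of 0.20 at 140 to 150 kb on the higher side, where EB KO lies at -1.44, and EB KO has humps on the lower side where EB WT is low.

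T had the greatest difference in profile, and its lower side held 2 long stretches where KO was higher. From 57.2 to 98.0 kb (chr17:8335742-8376519) the scores of 90 neighbouring positions averaged -0.69 in WT and 0.014 in KO, a centred difference of 1.01. This stretch covers part of T2, a gene beside T, and all of Prr18, which encodes a proline-rich protein, and of the predicted gene Gm46592. Its greatest point lay 84.8 kb from the viewpoint, at -0.93 in WT and 0.29 in KO. The window with the greatest difference, 80 to 90 kb away, had -0.88 in WT and 0.17 in KO. KO was thus near 0 along a stretch where WT was already as low as much farther out.

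The second stretch at T, from 142 to 205 kb (chr17:8228740-8291368), was the longest at any viewpoint, at 62.6 kb and 142 positions. It averaged -0.95 in WT and -0.30 in KO, a centred difference of 0.94, and covered all of Ccr6 and Gm33799 and part of Mpc1. Ccr6 encodes a chemokine receptor of lymphocytes, and over its span WT had -1.02 and KO -0.19. Every one of its 44 positions was past 0.5, with centred differences from 0.85 to 1.37. Mpc1, a subunit of the mitochondrial pyruvate carrier, had -0.73 and -0.56, a centred difference of 0.47. Between these stretches the genotypes met: Sft2d1, a gene of vesicle transport, had -0.81 in WT and -1.08 in KO, a centred difference of 0.030.

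On the higher side of T, every window from 60 to 190 kb had a negative centred difference, while those from 20 to 60 kb had 0.036 to 0.17. From 128 to 160 kb (chr17:8561717-8594090), inside Pde10a, whose product degrades cyclic AMP and cyclic GMP, 80 positions averaged -0.19 in WT and -1.46 in KO, a centred difference of -0.98. The point of greatest difference lay 145 kb away, at 0.43 in WT and -1.44 in KO. In WT the window at 140 to 150 kb stood 1.05 above the lowest window nearer to the viewpoint, whereas KO had no hump along the same stretch. A shorter stretch of 5.53 kb, 71.6 to 77.1 kb away with no annotated gene, had -0.11 in WT and -0.99 in KO. Over the covered part of Pde10a as a whole, WT had -0.78 and KO -1.50, and its positions ran from -1.57 to 0.27 in centred difference.

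Within 10 kb of the T viewpoint KO was the lower profile on both sides, with centred differences of -0.23 on the lower and -0.32 on the higher side. T itself (chr17:8434423-8442496) had 2.77 in WT and 2.19 in KO over 11 positions, a centred difference of -0.28. A little farther out, 12.7 to 15.8 kb away in T2, 8 positions averaged 2.81 in WT and 1.61 in KO, a centred difference of -0.90. T2 therefore held centred differences from -1.31 near T to 1.23 at its far end, and its whole-span mean of 0.18, which was -0.12 without centring and -0.049 with KO rescaled to WT by a straight line, describes neither. Of the local maxima of the window profiles at T, 5 in WT and 6 in KO, none was shared. A shared maximum lay in the same 10 kb window in both genotypes. Over all viewpoints, T included, 5 of 17 WT maxima and 5 of 14 KO maxima were shared. Maxima at T stood above the lowest nearer window by 0.15 to 1.05 in WT and by 0.024 to 1.05 in KO. The WT maximum in Pde10a had the greatest genotype difference of the maxima at T. The KO maxima at 180 to 190 kb in Ccr6 and at 70 to 80 kb in T2 came next.

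Gene starts on the lower side of T followed the stretches they lie in. Starts were taken only for the 20 of 51 annotated genes with a promoter sequence. This left out Gata4, T2, Pde10a and every gene at the Gata6 viewpoint. Positions within 2 kb of a start were averaged where there were at least 3, which gave 17 starts, 9 of them on the lower side of T. The start of Gm46592 scored -0.91 in WT and 0.19 in KO, a centred difference of 1.41. That of Gm33799, a long non-coding RNA gene, scored -0.98 and -0.083, a difference of 1.20, and Ccr6 had -1.25 and -0.53, a difference of 1.02. Prr18 and Mpc1 had 0.75 and 0.66. The shared, divergent start region of Sft2d1 and 4930506C21Rik, 123 kb away, had -0.071. Gm16702 and Gm34036, both nearer than 45 kb, had 0.0019 and 0.033. All 5 starts past 0.5 were thus among the 9 on the lower side of T, where 11 of all 22 windows were also higher by 0.5 or more. The 8 starts at Foxa2 and Gata4 ran from -0.40 to 0.24.

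**Figure D2:**
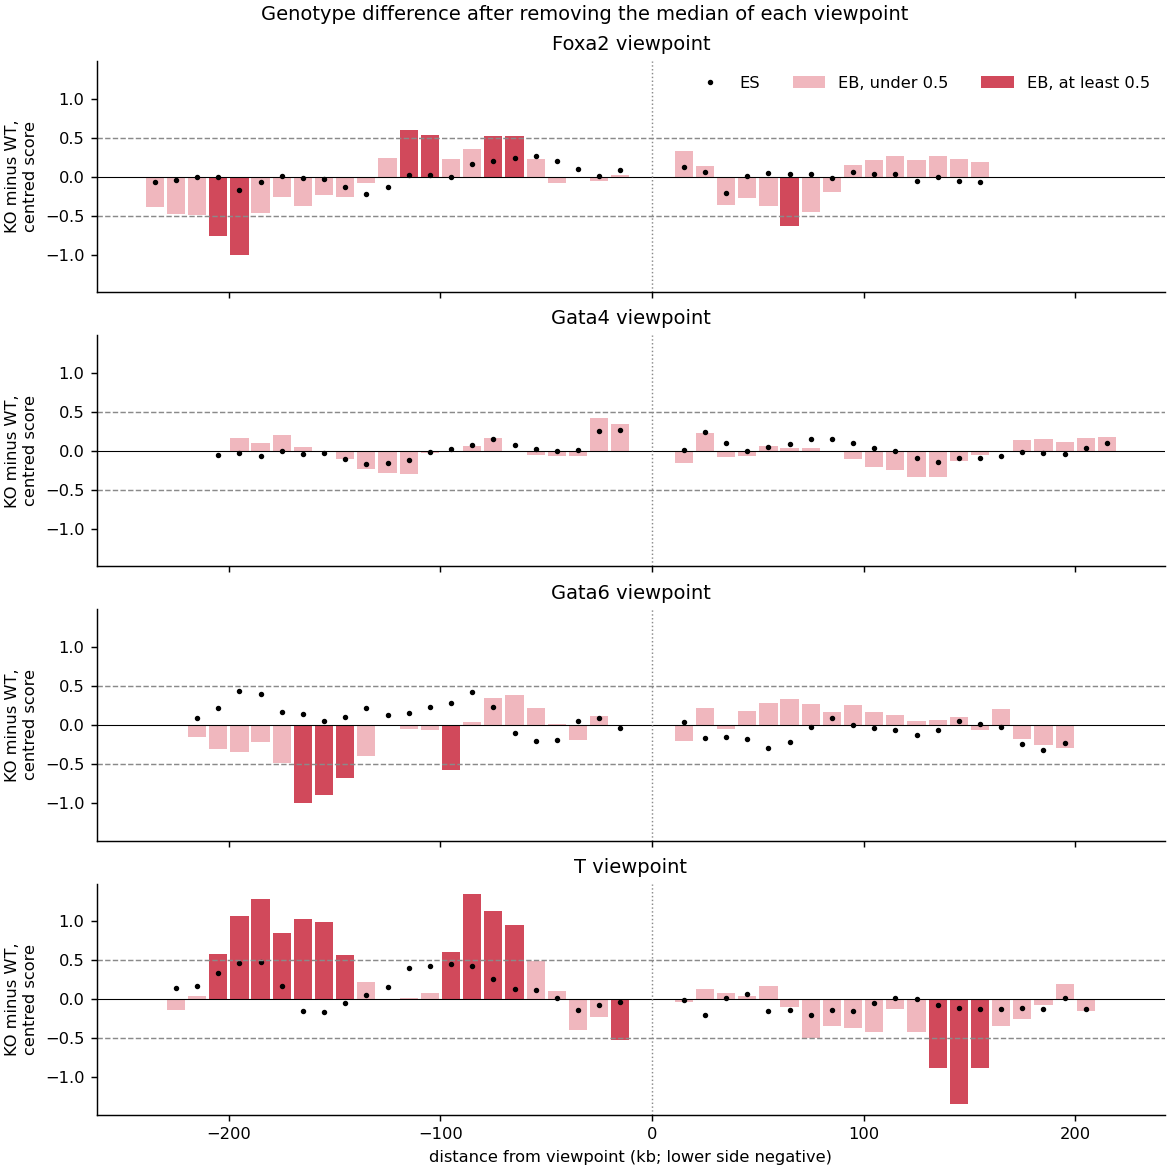
Centred difference of KO minus WT in score units for each 10 kb window in EB (bars, dark where at least 0.5 in size) and in ES (points), against distance from the viewpoint in kb. Dark bars number 15 at T, 7 at Foxa2, 4 at Gata6 and 0 at Gata4. No ES point reaches the dashed lines at 0.5 and -0.5, though the highest, at T, is 0.48.

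At Gata6 the difference was a WT hump on the lower side that KO lacked. From 136 to 171 kb (chr18:10882998-10917954), mostly in the long non-coding RNA gene Gm35814, 72 positions averaged 0.69 in WT and -0.0089 in KO, a centred difference of -0.82. At its greatest point, 162 kb away, WT had 0.84 and KO -0.28, and the window around it, 160 to 170 kb away, had 0.62 and -0.26. In windows, WT peaked at 0.80 at 150 to 160 kb, while KO had 0.018 there and its own local maximum at 120 to 130 kb, at 0.34. A second, narrower stretch in Gm35814, 94.3 to 98.5 kb away, had 0.51 in WT and 0.029 in KO, and WT had a local maximum of 0.53 in the window at 90 to 100 kb. Nearer to the viewpoint Gm35814 was higher in KO: the window at 60 to 70 kb had 0.16 in WT and 0.67 in KO, a centred difference of 0.39. The span of Gm35814 therefore ran from -1.24 to 0.52 in centred difference, with a mean of -0.21. When the median of both sides was removed in each 10 kb band instead, the named windows at 150 to 160 and 140 to 150 kb had -0.42 and -0.39 and that at 160 to 170 kb, with -0.60, stayed past 0.5.

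The Gata6 gene and the higher side had no window past 0.5. Gata6 (chr18:11052510-11085636) had 1.99 in WT and 2.10 in KO over 65 positions, a centred difference of -0.014. Gata6os, the long non-coding RNA gene that begins beside it, had 3.05 and 3.08. On the higher side, where no other gene is annotated within reach, window means of the centred difference ran from -0.29 to 0.34 and single positions 10 to 25 kb away from -0.46 to 0.46, and both genotypes had a local maximum at 160 to 170 kb, at -1.28 in WT and -0.96 in KO.

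At Foxa2 the lower side had alternating stretches. The longest stretch at this viewpoint, at 21.6 kb, ran from 187 to 209 kb (chr2:147838122-147859742), where no gene is annotated. Its 46 positions averaged 0.74 in WT and 0.10 in KO, a centred difference of -0.83. At its greatest point, 201 kb away, WT had 1.08 and KO 0.16. Shorter stretches lower in KO lay farther out, at 210 to 212 kb (-0.54) and 218 to 222 kb (-0.61). The window at 190 to 200 kb had the greatest difference at this viewpoint, with 0.79 in WT and -0.013 in KO. Both genotypes had a local maximum at 200 to 210 kb, which stood above the lowest window nearer to the viewpoint by 1.42 in WT and by 0.51 in KO. The hump was thus present in both and taller in WT.

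Nearer to Foxa2 the order on the lower side turned. From 104 to 117 kb (chr2:147929582-147942555), just beyond 9030622O22Rik, 35 positions averaged -0.46 in WT and 0.37 in KO, a centred difference of 0.63. With the median of both sides removed in each 10 kb band, the 2 windows here, at 100 to 110 and 110 to 120 kb, had 0.16 and 0.17. Within 9030622O22Rik a stretch of 3.58 kb, 66.0 to 69.5 kb away, had 0.12 in WT and 0.86 in KO. The start of that gene, 6.43 kb from the viewpoint, went the other way, at 2.48 in WT and 2.27 in KO, a centred difference of -0.40. On the higher side, 26 positions from 58.2 to 72.1 kb, with no annotated gene, had 0.63 in WT and 0.22 in KO, and WT alone had a local maximum at 30 to 40 kb, at 1.32 against 1.15 in KO. Gm36597, a long non-coding RNA gene 124 kb away on that side, had -1.64 and -1.20, a centred difference of 0.25. Foxa2 itself has 1 scored position in its span and was given no value.

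Gata4 had the most similar profiles. The greatest centred differences among its windows were 0.42 and 0.34, both within Gata4 on its lower side, 20 to 30 and 10 to 20 kb from the viewpoint. WT had 1.93 and 2.59 in these windows and KO 2.66 and 3.25. Of similar size but lower in KO were 2 neighbouring higher-side windows that overlap Blk, with -0.34 (120 to 130 kb) and -0.33 (130 to 140 kb). The only stretch of at least 5 neighbouring positions past 0.5 held 6 positions, 9.04 to 11.3 kb away in Gata4, at 3.00 in WT and 3.92 in KO. Over the whole of Gata4 (chr14:63198914-63271712) the scores were 2.51 and 2.93, a centred difference of 0.11. Of its neighbours, Fdft1, which encodes squalene synthase, had 0.072, the DNA glycosylase gene Neil2 -0.058 and the lysosomal protease gene Ctsb -0.18. On the other side Blk, a Src-family kinase gene of B cells, had -0.13 and Fam167a 0.16. Both genotypes had a local maximum at 90 to 100 kb in the transcript Gm4151, at 0.98 in WT and 1.19 in KO. Among the maxima found in WT alone were small ones at 110 to 120 kb in Ctsb and at 190 to 200 kb in Fam167a, which stood above the lowest nearer window by 0.031 and 0.076.

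**Figure D3:**
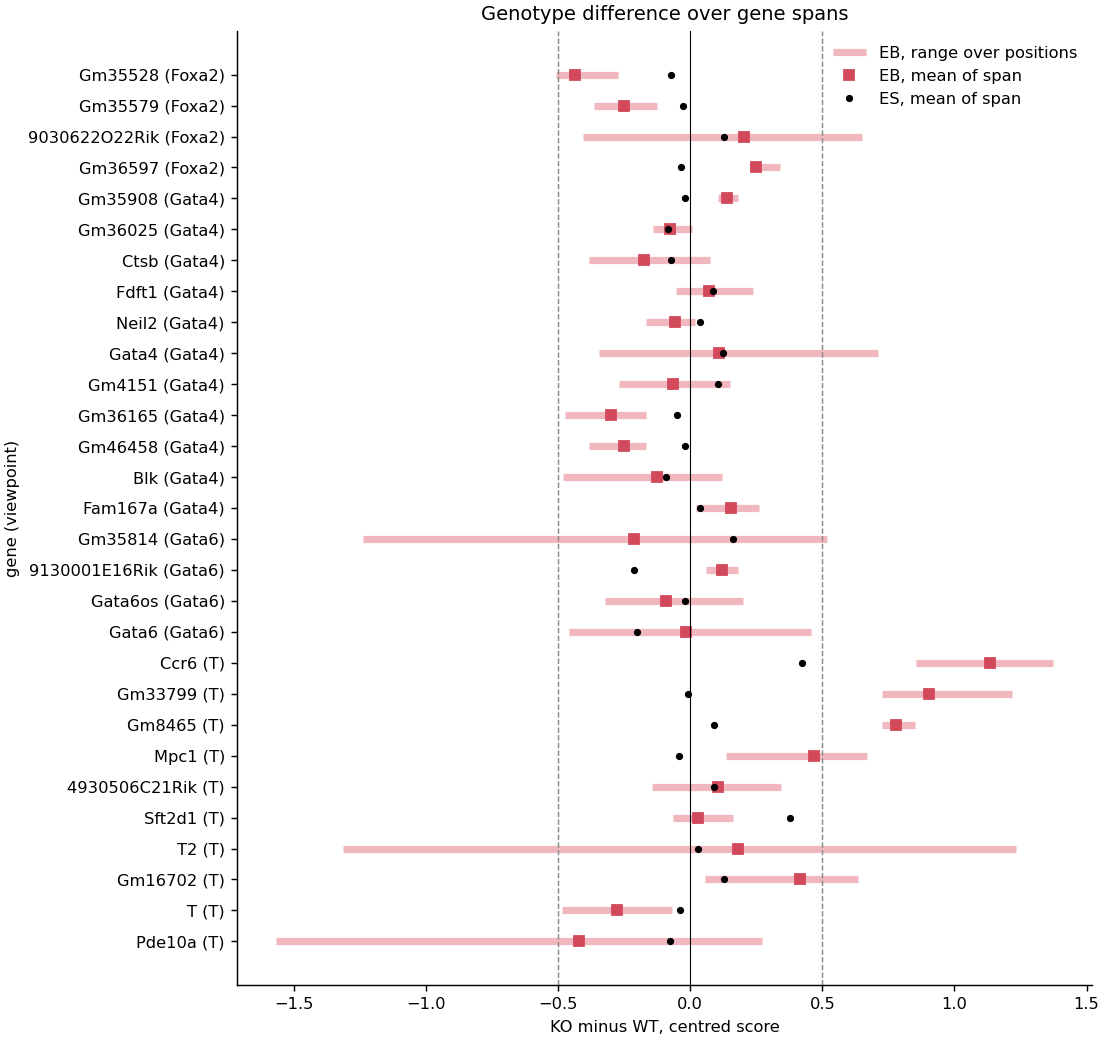
Centred difference of KO minus WT in score units over the spans of the 29 genes with at least 10 scored positions, ordered by viewpoint and position: squares are means in EB, bars the range over positions in EB, points means in ES. Ccr6, Gm33799 and Gm8465 near T lie beyond 0.5. T2, Pde10a and Gm35814 have bars on both sides of 0, as do other genes such as Gata4 and Gata6.

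Across all 29 genes with a span value, 3 had a mean past 0.5, and all 3 lay at T: Ccr6 at 1.13, Gm33799 at 0.90 and the pseudogene Gm8465, which lies inside Gm33799, at 0.78. All 3 lie in 1 stretch, in the region where windows past 0.5 were most frequent (35.7% at T, against 16.1% at all 4 viewpoints). The median over the 29 was 0.030, with 15 above and 14 below 0, and the 13 protein-coding genes had the same median. At Gata4 the 6 protein-coding genes ran from -0.18 to 0.16. The viewpoint genes with a value had -0.28 at T, -0.014 at Gata6 and 0.11 at Gata4. Without centring, Mpc1 had 0.17 instead of 0.47 and Pde10a -0.72 instead of -0.42, and Ctsb, Neil2, Blk, Gata6, Sft2d1 and T2 had the opposite sign. Rescaling KO to WT by a straight line gave T -0.79.

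By distance and side, the greatest band means lay beyond 50 kb at T, Foxa2 and Gata6, and within 25 kb at Gata4. Nearer bands also differed. The lower side of T had -0.39 from 10 to 25 kb, with 38.7% of positions past 0.5, all lower in KO. Over all positions at T, 34.3% were past 0.5, with 23.2% higher and 11.0% lower in KO. The first 10 kb of Foxa2 had -0.36 on the lower side and 0.34 on the higher. At T, the mean centred difference on the lower side was 0.88 from 50 to 100 kb, 0.15 from 100 to 150 kb and 0.69 farther out. On the higher side of T it was -0.22, -0.61 and -0.26 in the same bands. Of the positions 50 to 100 kb away on the lower side, 81.7% were past 0.5 and all of these were higher in KO. At Foxa2 the lower side had 0.39, 0.22 and -0.47 in these 3 bands and the higher side -0.27, 0.24 and 0.11. At Gata6 the lower side had 0.011, -0.24 and -0.46 and the higher side 0.26, 0.096 and -0.14. At Gata4 both sides had similar values: -0.20 and -0.24 from 100 to 150 kb, and 0.074 and 0.094 farther out. The only band of Gata4 above 0.2 had 0.37 and lay on the lower side, 10 to 25 kb away.

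**Figure D4:**
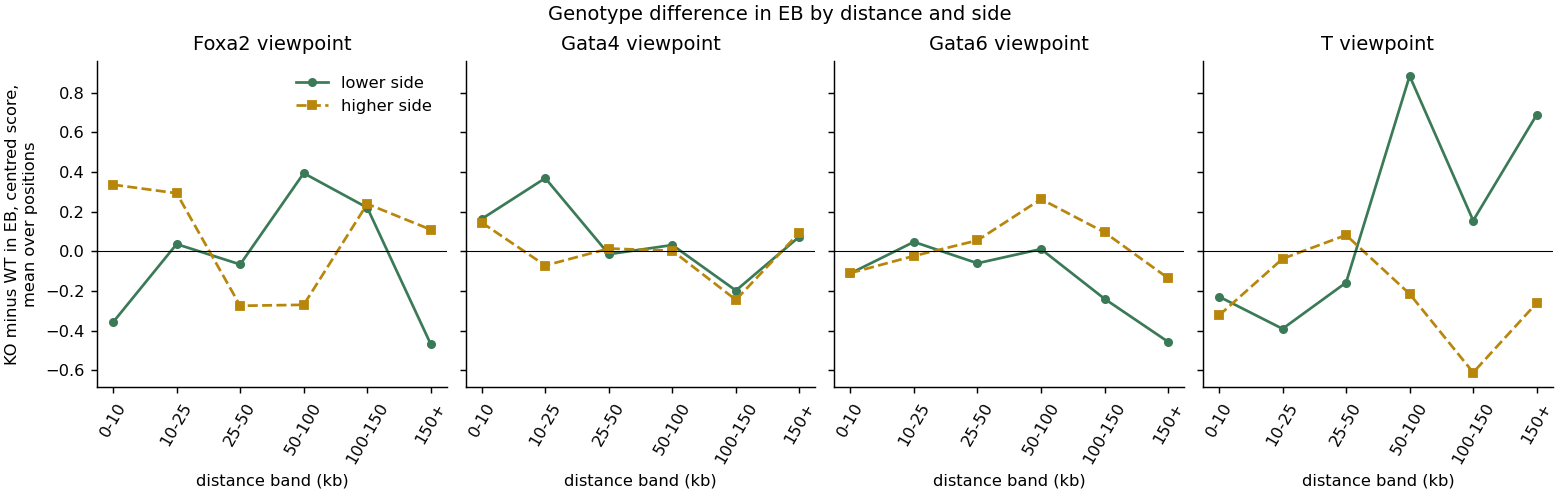
Mean centred difference of KO minus WT in EB, in score units over all positions of a distance band (kb), on the lower side (circles) and higher side (squares) of each viewpoint. The sides of T diverge beyond 50 kb, to 0.88 and -0.61, whereas those of Gata4 stay close together from 25 kb outward.

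The decay with distance gave the same order. Scores on the lower side of T fell by 0.81 per doubling of distance in WT and by 0.57 in KO, and on the higher side by 0.57 in WT and by 0.73 in KO. On the lower side of Gata6 the decay was -0.30 in WT and -0.47 in KO, and on that of Foxa2 -0.35 and -0.53, so there KO was the steeper profile. On both sides of Gata4 and on the higher sides of Foxa2 and Gata6 the slopes of the genotypes differed by less than 0.07. Across windows, EB WT and EB KO correlated with Pearson's r of 0.98 at Gata4 (n = 41), 0.94 at Gata6 (n = 40), 0.91 at Foxa2 (n = 38) and 0.74 at T (n = 42), as a description of windows that share a viewpoint and its decay. In ES the same correlation was at least 0.97 at each viewpoint.

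The balance of the sides, which no constant shift changes, differed most at T. In EB WT the lower side of T exceeded the higher side by 0.10 over 20 distances present on both sides, and in EB KO by 0.89. The ES columns lay with EB KO rather than EB WT, at 0.62 in WT and 0.87 in KO. At Gata6 the lower side led by 1.23 in EB WT and 0.96 in EB KO, and both were above ES, at 0.42 and 0.66. Foxa2 had 0.66 and 0.85 in EB, and Gata4 -0.40 and -0.34. Distal windows, from 50 kb outward, lay below nearer ones by similar amounts in both genotypes at Foxa2, Gata4 and Gata6, with KO minus WT of -0.022, -0.094 and -0.099. At T this was 0.26, made up of 0.87 on the lower side and -0.41 on the higher side, and it was -0.065 with distal windows counted only from 100 kb. At Foxa2 and Gata6 its sign also changed under other settings.

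**Figure D5:**
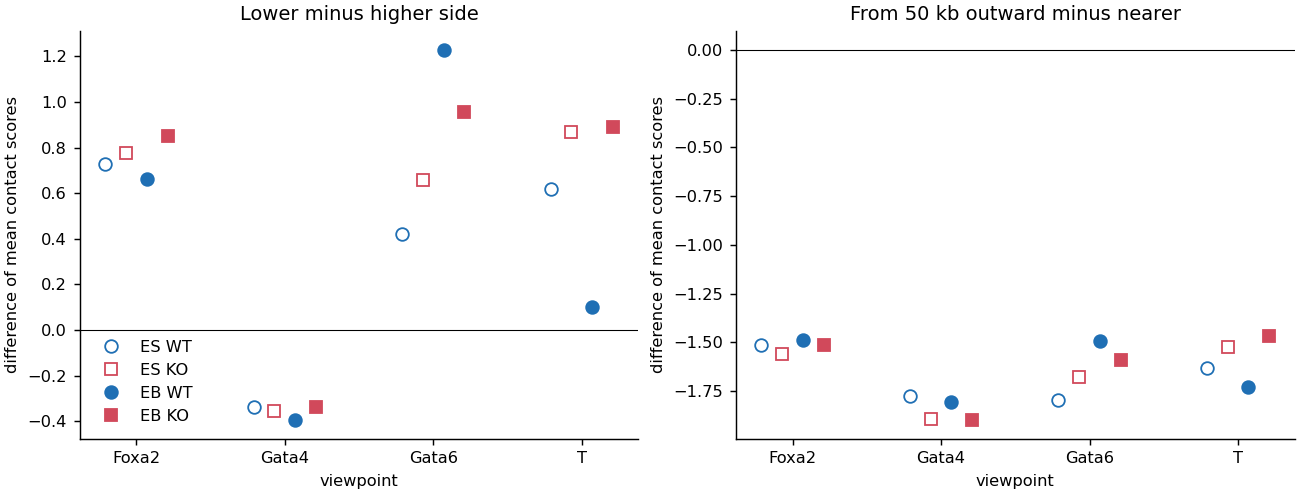
Differences of mean contact scores at each viewpoint in ES (open) and EB (filled), WT as circles and KO as squares: the lower minus the higher side on the left, and windows from 50 kb outward minus nearer windows on the right. At T the EB WT point lies at 0.10 on the left, below the other 3 points at 0.62 to 0.89.

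The same genotype comparison in ES, which shares no column with that in EB, had 0 of 161 windows past 0.5 (0%). This count depends on the size chosen, because ES centred differences ran from -0.32 to 0.48, against -1.34 to 1.35 in EB. The greatest in ES lay on the lower side of T, 180 to 190 kb away. On the lower side of Gata6 the ES difference was 0.44 at 190 to 200 kb. The SD of the centred difference across windows was 0.61 in EB and 0.21 in ES at T, 0.39 and 0.11 at Foxa2, 0.33 and 0.19 at Gata6, and 0.17 and 0.11 at Gata4. An SD here is taken over windows and is no replicate error, and the greater unevenness in EB was not tested. The EB difference was the larger in size in 122 of 161 windows. Of the 26 windows past 0.5 in EB, 17 had the same sign in ES, against 91 of all 161. This was 12 of 15 at T, where 33 of all 42 windows shared the sign, 5 of 7 at Foxa2, against 25 of 38, and 0 of 4 at Gata6, against 11 of 40. At T the ES difference over the stretch from 57.2 to 98.0 kb was 0.32 and over Ccr6 0.42, while in the Pde10a stretch it was -0.095 and over Gm33799 -0.0070. In the Gata6 stretch from 136 to 171 kb ES WT had -0.39 and ES KO -0.26, both below the 0.69 of EB WT and below the -0.0089 of EB KO.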

How the data were processed

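Contact scores of 16 pooled columns were read, 1 for each stage and genotype at 4 viewpoints. They are scores that the authors made before they deposited them. For their unit, log base, smoothing, scaling and enzyme the entry is "not given in the sources used here". The submitters' processing notes name the build mm10 and, without versions or roles, deepTools, STAR and BWA. The 4 RNA-seq libraries were not analysed here. Positions with an infinite score, which occurred no farther than 3 kb from a viewpoint, were left out, as were those lacking a score in 1 genotype. At Foxa2 the latter numbered 94, all without a KO score, and its higher-side windows reached 160 kb. A KO score was also lacking at 12 positions of Gata4, 15 of T and 29 of Gata6. A WT score was lacking only at Gata6, at 10 positions.

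KO minus WT was centred on its median over the positions of each viewpoint. Windows of 10 kb from 10 kb outward needed at least 10 positions, gene spans at least 10 and gene starts, taken within 2 kb, at least 3. Stretches were runs of at least 5 neighbouring positions past 0.5 in 1 direction. A local maximum was a window from 20 kb outward above both its neighbours. Gene spans, starts and promoters came from RefSeq (GRCm38.p6). Named were the 3 highest and 3 lowest windows past 0.5 at each viewpoint (otherwise the 2 largest), the 2 longest stretches in each direction, 3 local maxima, all protein-coding genes with a value, and the viewpoint genes. Gm46592, Gm33799 and the other starts at T were given as part of all gene starts with a promoter sequence and a value. The members, lists and sizes were chosen with earlier results of these data known. Replicates are pooled and counts are not given, so depth is unknown and no interval, floor or test was computed. Python 3.11.15 with numpy 2.4.6 and pandas 2.3.3 was used. Window counts were tested on EB WT profiles to which a constant, noise and known changes filling whole windows were added. Those changes match the window edges, so the test checks the arithmetic and not how well real differences are found. Alternatives were window width, the distance left out, window medians, reach, centring, size and leaving out each viewpoint.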

Additional observations from a re-analysis of the deposited data

Results flagged for a closer look

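At 1 window the centred genotype difference had opposite signs in EB and ES, by at least 0.3 in each. It lay 190 to 200 kb from Gata6 on the lower side, over the pseudogene Gm18764, where EB WT had 0.24 and EB KO 0.0095, and ES WT had -0.50 and ES KO -0.037. The centred difference was -0.35 in EB and 0.44 in ES, a change of -0.78, which was not tested because each group has 1 pooled column.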

How the results depend on the processing

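The 26 of 161 windows past 0.5 (16.1%) became 15 of 86 with windows of 20 kb (17.4%) and 15 of 112 with windows up to 150 kb only (13.4%). They became 55 of 161 at a size of 0.3 (34.2%), 15 of 161 at 0.75 (9.32%) and 11 of 119 without T (9.24%). The other 15 alternatives gave 19 to 37 windows, or 14.8% to 23.5%. The lower-minus-higher contrast kept its sign in 32 of 32 alternatives. Without windows of low score it was 0.30 at Foxa2, -0.018 at Gata6 and 0.46 at T. The far-minus-near contrast depended more on the choices. At Foxa2 it was 0.023 with 5 kb windows, 0.049 with 20 kb left out, 0.16 up to 150 kb, -0.23 without windows of low score and 0.028 on the higher side alone. At Gata6 it was 0.046 up to 150 kb, -0.21 without windows of low score, -0.31 with far taken from 100 kb, -0.23 on the lower side and 0.048 on the higher. At T it was 0.16 up to 150 kb, 0.63 without windows of low score, -0.065 with far taken from 100 kb, 0.87 on the lower side and -0.41 on the higher. The SD of the centred difference at Gata4 was 0.074 when the median of both sides was removed in each band, and the other 43 alternatives to these SDs moved them by less than 1.5 times or by less than 0.1 score units. None of 83 alternatives to the named windows changed a sign, but 5 took a window under 0.5. Of 39 alternatives to the spans of protein-coding genes, 8 changed the sign, in 6 genes (Ctsb, Neil2, Blk, Gata6, Sft2d1 and T2), and 6 of these were without centring. Ccr6 stayed past 0.5 in its 3 alternatives. Requiring all 4 columns left the same positions. The causes were not tested. Settings with fewer or wider windows leave fewer windows to count, so the counts are given with their shares. No paired analysis was possible because the 2 libraries of each group share 1 column. Leaving out a library was not possible for the same reason.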
